A study of Mus musculus with 2 samples.

Results

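The Wnt signalling genes described here are 56 mouse genes: 19 Wnt ligands, 10 Frizzled receptors, 2 LRP co-receptors, 4 R-spondins, 3 R-spondin receptors of the Lgr family, the 3 receptors Ror1, Ror2 and Ryk, 8 secreted inhibitors, 4 TCF/LEF transcription factors and 3 feedback or target genes. They were chosen by gene symbol, and all 56 matched a row among the 43346 mouse genes of the deposited gene tables. The tissue was neural tube of mouse embryos of strain B6NCrl at embryonic day 13.5, described by the submitters as healthy and taken from males and females mixed. RNA longer than 200 nt was isolated with the mirVana kit, and each library was made from 10 ng of it with spike-in RNA added. There was a single group, made of biological replicates 1 and 2, each from its own tissue sample of the same donor record. The study thus held no second genotype, treatment or stage, and every comparison below sets genes of a library side by side or sets the libraries against each other.

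Wnt proteins are secreted, lipid-modified signals that bind Frizzled receptors together with Lrp5 or Lrp6. In the canonical branch this stabilises β-catenin, which enters the nucleus and acts with TCF/LEF factors on target genes, while Ror and Ryk receptors serve β-catenin-independent branches. In the developing neural tube the pathway is known for dorsal patterning and progenitor growth downstream of the roof plate, for guidance of commissural axons, and for the growth of blood vessels into the nervous tissue.

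Replicate 1 held 34125110 estimated reads and replicate 2 held 22311849, of which 26925 and 19482 fell on the 56 genes. Levels are in TPM (each transcript's abundance per length, scaled to the same sum in every library), so that genes can be set side by side within a library. Spike-ins took 13.0% and 12.6% of the TPM. A gene was called detected where each library gave it at least 1 TPM. Among general markers, the neuronal list summed to 3131 and 3024 TPM and the progenitor list to 2935 and 2834 TPM, both above the other 10 marker lists. The library spread over 17428 genes was a common biological coefficient of variation of 9.24%. In bulk tissue, fewer cells of a type and less RNA per cell cannot be told apart.

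Of the 56 genes, 44 (78.6%) were detected, against 13263 of 21474 protein-coding genes (61.8%). By mean TPM, the highest of them, the inhibitor gene Sfrp2, stood at percentile 90.5 of protein-coding genes, the receptor gene Fzd3 at percentile 77.7 and the ligand gene Wnt7b at percentile 74.4. Summed by role, the secreted inhibitors held 139 ± 2.42 TPM (SD, n = 2), the Frizzled receptors 80.1 ± 11.4, the Wnt ligands 75.8 ± 8.48, the TCF/LEF factors 38.8 ± 8.35 and the feedback and target genes 30.4 ± 2.36 TPM. Ror and Ryk receptors held 14.6 ± 0.495, R-spondin receptors 12.4 ± 1.17, LRP co-receptors 9.66 ± 0.757 and R-spondins 6.70 ± 0.827 TPM. The 8 listed inhibitors therefore carried 1.97 and 1.72 times the transcripts of all ligands in replicates 1 and 2, and the Frizzled genes 1.03 and 1.08 times. These ratios depend on the genes listed, and Frzb, another secreted inhibitor, is counted with the wider pathway genes.

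Sequences that the later results refer to are shown first. TCF/LEF factors are known to bind short elements around the letters CTTTG, and the 4 words made of CTTTG, then A or T, then again A or T, were searched on both strands in the 300 bases that run from 250 before to 50 after each gene's RefSeq start (GRCm38.p6). None of these words contains another, but matches may overlap. Of the 56 genes, 40 had an entry, and 5 of the 40 (12.5%) held a match, against 16.9% of all 32851 promoters and 14.4% of 19931 protein-coding promoters. Only Sp5 and Dkk1 among the 40 held 2 matches or more (5%), against 1.94% of all promoters. Both are genes known to respond to Wnt signalling, but so are Axin2 and Nkd1, which held no match. The Nkd1 window lies 6279 bases from the start of its GENCODE M21 model. The Sp5 stretch is the 250 bases before its start, chr2:70474673-70474922 on the plus strand, with the matches in capitals: CTTTGTT on the minus strand (reading AACAAAG here), 222 bases before the start, and CTTTGAT on the plus strand, 104 before. The Dkk1 stretch, chr19:30549588-30549613 on the minus strand, holds CTTTGAA 117 bases before the RefSeq start and the match CTTTGTT 98 before it. That start lies 169 bases inside the GENCODE M21 model, so these letters are in the first exon of that model. A match is a run of letters, not a shown binding site.
Sp5: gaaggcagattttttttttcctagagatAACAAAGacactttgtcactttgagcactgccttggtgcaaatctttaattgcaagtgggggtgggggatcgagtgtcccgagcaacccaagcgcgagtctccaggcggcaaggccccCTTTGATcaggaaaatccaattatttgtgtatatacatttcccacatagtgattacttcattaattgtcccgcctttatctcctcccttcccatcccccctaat
Dkk1: CTTTGAAatcccatcccggCTTTGTT

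Lef1 and Tcf7l2 are known for alternative splicing, and their transcript shares are given further on. The exons that distinguish their coding transcripts are shown in capitals between 15 bases of the neighbouring exons in lower case, from the GENCODE M21 transcripts (GRCm38). They are the 84-base exon 6 of Lef1-201 at chr3:131191023-131191106, and in Tcf7l2 the 69-base exon 4 of Tcf7l2-222 at chr19:55755014-55755082, the 51-base exon 12 of Tcf7l2-209 at chr19:55924530-55924580 and its 73-base exon 13 at chr19:55925977-55926049. All 4 lie on the plus strand and are wholly coding. The 73-base exon, the first of 2 of that length in the gene, is not a multiple of 3 bases, so that its use shifts the reading frame of what follows, while the other exons keep it.
Lef1 84-base exon: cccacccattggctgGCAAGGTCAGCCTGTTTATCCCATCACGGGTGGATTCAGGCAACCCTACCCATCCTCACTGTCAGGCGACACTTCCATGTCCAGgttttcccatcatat
Tcf7l2 69-base exon: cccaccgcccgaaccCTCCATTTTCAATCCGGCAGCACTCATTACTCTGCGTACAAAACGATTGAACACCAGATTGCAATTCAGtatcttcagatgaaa
Tcf7l2 51-base exon: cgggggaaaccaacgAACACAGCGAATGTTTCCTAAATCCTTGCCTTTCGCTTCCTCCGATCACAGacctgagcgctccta
Tcf7l2 73-base exon: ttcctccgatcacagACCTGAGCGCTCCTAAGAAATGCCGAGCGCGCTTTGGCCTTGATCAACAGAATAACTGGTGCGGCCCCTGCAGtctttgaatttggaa

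Among the ligands, Wnt7b stood above all others. Wnt7b (chr15:85535437-85582473, minus strand), which with Wnt7a is known to guide vessel growth into the spinal cord, had 23.92 TPM in replicate 1 and 26.62 TPM in replicate 2. Wnt5a, the main ligand of the β-catenin-independent branch, had 8.46 and 12.55 TPM. Wnt7a had 7.32 and 7.29 TPM. Wnt7b thus exceeded its close relative Wnt7a by 3.27 and 3.65 times within the libraries, and Wnt5a by 2.83 and 2.12 times. Wnt6, known from surface ectoderm, had 6.67 and 7.61 TPM, and Wnt3 had 6.06 and 7.03 TPM. The values of Wnt7a overlapped those of Wnt6, and those of Wnt6 overlapped Wnt3, so the order of these ligands was not settled.

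A middle set followed. Wnt5b had 3.22 and 4.19 TPM and Wnt4, known as an attractant for commissural axons, had 3.68 and 3.10 TPM. Wnt1 and Wnt9a lay together, at 2.89 and 2.76 TPM and at 2.82 and 2.71 TPM. Wnt11, a ligand of cell movement and polarity, had 1.76 TPM in replicate 1 and 3.76 in replicate 2, a range that took in both. Of 19 ligands 10 were detected. Wnt7b alone held 34.3% and 32.5% of the summed ligand TPM, and Wnt7b, Wnt5a and Wnt7a together held 56.9% and 56.8%.

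The 9 ligands below the detection level were Wnt3a, Wnt2, Wnt2b, Wnt16, Wnt8b, Wnt10a, Wnt10b, Wnt9b and Wnt8a. Wnt3a, made with Wnt1 by the roof plate, sat at the threshold with 0.91 and 1.26 TPM, and Wnt2 with 0.92 and 1.12 TPM. Wnt3, its nearest relative, exceeded Wnt3a by 6.66 and 5.58 times. Wnt2b, Wnt16 and Wnt8b ranged from 0.31 to 0.66 TPM over both libraries. Wnt8a had 0 counts in both, where 3 counts would be 0.0806 and 0.127 TPM. The upper end of its 95% interval, which covers counting error only, was 0.0990 and 0.156 TPM. By mean TPM, 11 of the 18 neighbouring pairs in the ligand order had overlapping values and 7 did not, as the plot of ligand levels shows.

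**Figure D1:**
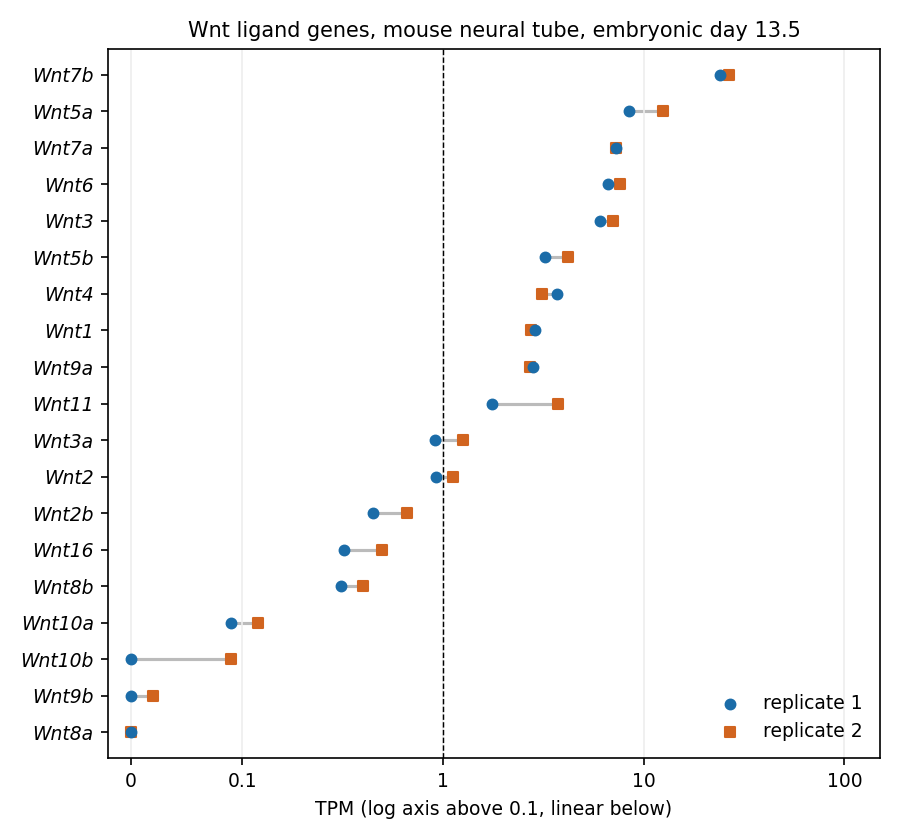
TPM of the 19 Wnt ligand genes in replicate 1 (circles) and replicate 2 (squares), ordered by mean, on an axis that is logarithmic above 0.1 TPM and linear below, with the detection level of 1 TPM dashed. Wnt7b stands apart at 23.92 and 26.62 TPM, and the 9 undetected ligands have at least 1 library left of the dashed line.

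Several ligand genes lie next to each other in the genome, and the partners differed in level. Wnt1 and Wnt10b are 11706 bases apart on chromosome 15, on opposite strands. Wnt1 had 149 and 90 counts where Wnt10b had 0 and 2. Wnt6 and Wnt10a, on the same strand of chromosome 1 with 6193 bases between them, had 251 and 174 counts against 5 and 4. On chromosome 11, Wnt3 had 408 and 300 counts where Wnt9b, 24328 bases away, had 0 and 1. In these 3 pairs a partner was near 0 in both libraries. The fourth pair, Wnt3a and Wnt9a, 16175 bases apart on chromosome 11, was different: Wnt9a had 205 and 125 counts against 55 and 48 for Wnt3a, so that both partners had at least 48 counts in each library.

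Of the 10 Frizzled genes, 9 were detected. Fzd3 (chr14:65192449-65262463, minus strand), known for its part in axon guidance and planar polarity, was highest with 27.04 TPM in replicate 1 and 33.48 TPM in replicate 2. Fzd2 had 11.09 and 16.07 TPM. Fzd9 had 8.73 and 9.19 TPM, and Fzd1 had 7.40 and 9.27 TPM. Fzd3 held 37.5% and 38.0% of the Frizzled transcripts and exceeded Fzd2 by 2.44 and 2.08 times. Fzd6, Fzd7 and Fzd10 ranged from 3.69 to 6.31 TPM, and Fzd4 and Fzd8 from 1.42 to 1.83 TPM. Fzd5, a receptor of eye and gut development, was lowest with 0.14 and 0.15 TPM. The order was better settled than for the ligands, since 7 of 9 neighbouring pairs had no overlap. The exceptions were Fzd9 with Fzd1 and Fzd4 with Fzd8.

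The co-receptor gene Lrp6 had 7.94 and 8.73 TPM and Lrp5 had 1.18 and 1.46 TPM, a ratio of 6.73 and 5.98. Both passed the detection level, but Lrp6 carried 87.1% and 85.7% of the co-receptor transcripts. Ryk, an atypical kinase receptor that mediates repulsion of axons by Wnt proteins, had 8.93 and 9.02 TPM. Ror2 had 3.96 and 4.09 TPM, and Ror1 had 1.37 and 1.85 TPM. The order Ryk, Ror2, Ror1 was the same in both libraries, with no overlap.

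R-spondins are secreted proteins that strengthen Wnt signalling by keeping Frizzled receptors at the cell surface, and Lgr4, Lgr5 and Lgr6 are their receptors. Rspo3 had 2.60 and 3.56 TPM, Rspo2 had 1.86 and 2.12 TPM and Rspo1 had 1.14 and 1.29 TPM. Rspo4 was the exception, below the detection level with 0.51 and 0.31 TPM. All 3 receptors were detected: Lgr4 had 8.04 and 8.57 TPM, Lgr5 had 2.44 and 3.13 TPM and Lgr6 had 1.06 and 1.49 TPM. Lgr4, the broadly expressed member of the family, exceeded the stem cell marker Lgr5 by 3.30 and 2.74 times.

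The secreted inhibitors had the highest summed level of all the roles. Sfrp2 (chr3:83766321-83774316, plus strand), whose product binds Wnt proteins outside the cell, had 73.13 TPM in replicate 1 and 78.15 TPM in replicate 2. That is 53.3% and 55.6% of the inhibitor total, and 1.05 and 0.955 times the summed TPM of all 19 ligands. Sfrp5 had 20.16 and 15.23 TPM. Dkk3, a divergent Dickkopf relative, had 16.91 and 17.67 TPM, and Sfrp1 had 15.90 and 15.84 TPM. Sfrp1 was the most even of these, and the values of Sfrp5 overlapped those of Dkk3. Wif1, Sfrp4 and Dkk2 ranged from 2.24 to 6.18 TPM, with overlap between neighbours. Dkk1, which blocks Lrp5 and Lrp6, was the only one of the 8 listed inhibitors not detected, with 1.33 and 0.99 TPM. The 4 listed Sfrp genes together summed to 112.95 and 112.42 TPM, and the 3 listed Dkk genes to 20.48 and 22 TPM. Frzb, also known as Sfrp3, was counted with the wider pathway genes and is not in these sums. Frzb had 19.30 and 19.93 TPM, with a mean above that of Sfrp5.

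Some of these levels share sequence with a gene on the other strand. Since strand handling is not given in the sources used here, reads of such genes cannot be told apart where they overlap. In GENCODE M21, 10 of the 56 genes share exonic bases with a gene on the opposite strand. For Sfrp2 these are 347 bases, 16.1% of its exonic length, shared with Gm26771, which itself had 2.41 and 3.38 TPM. For Wnt5a, Wnt7b, Wnt11, Fzd5, Fzd6, Tcf7l1 and Axin2 the overlapping gene had at most 0.88 TPM in either library. The partners of Rspo3 and Lef1 were not analysed here.

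All 4 TCF/LEF genes were detected. Tcf7l2 (chr19:55741820-55933654, plus strand) had 13.50 TPM in replicate 1 and 22.05 TPM in replicate 2. Tcf7l1, known mainly as a repressor, had 8.86 and 8.32 TPM. Lef1 (chr3:131110471-131224356, plus strand), known mainly as an activator, had 6.12 and 9.87 TPM. Tcf7l2 was highest in both libraries, whereas the values of Tcf7l1 fell within the range of Lef1. Tcf7 was lowest and even, with 4.44 and 4.49 TPM. The ratio of Tcf7l2 to Lef1 was nearly the same in both libraries in TPM, 2.21 and 2.23. In counts, compared further on, the log2 ratio of replicate 2 over replicate 1 was 0.49 for Tcf7l2 and 0.65 for Lef1.

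The feedback and target genes were all detected. Nkd1, an inhibitor of Dishevelled, had 19.47 and 21.31 TPM. Axin2, the scaffold protein widely used as a readout of canonical signalling, had 6.59 and 8.07 TPM. Sp5, a transcription factor that Wnt signalling induces and whose promoter is printed above, had 2.63 and 2.65 TPM. Their order was the same in both libraries without overlap, and Nkd1 exceeded Axin2 by 2.95 and 2.64 times. The plot of receptor, inhibitor and target levels gives all of these values by library.

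**Figure D2:**
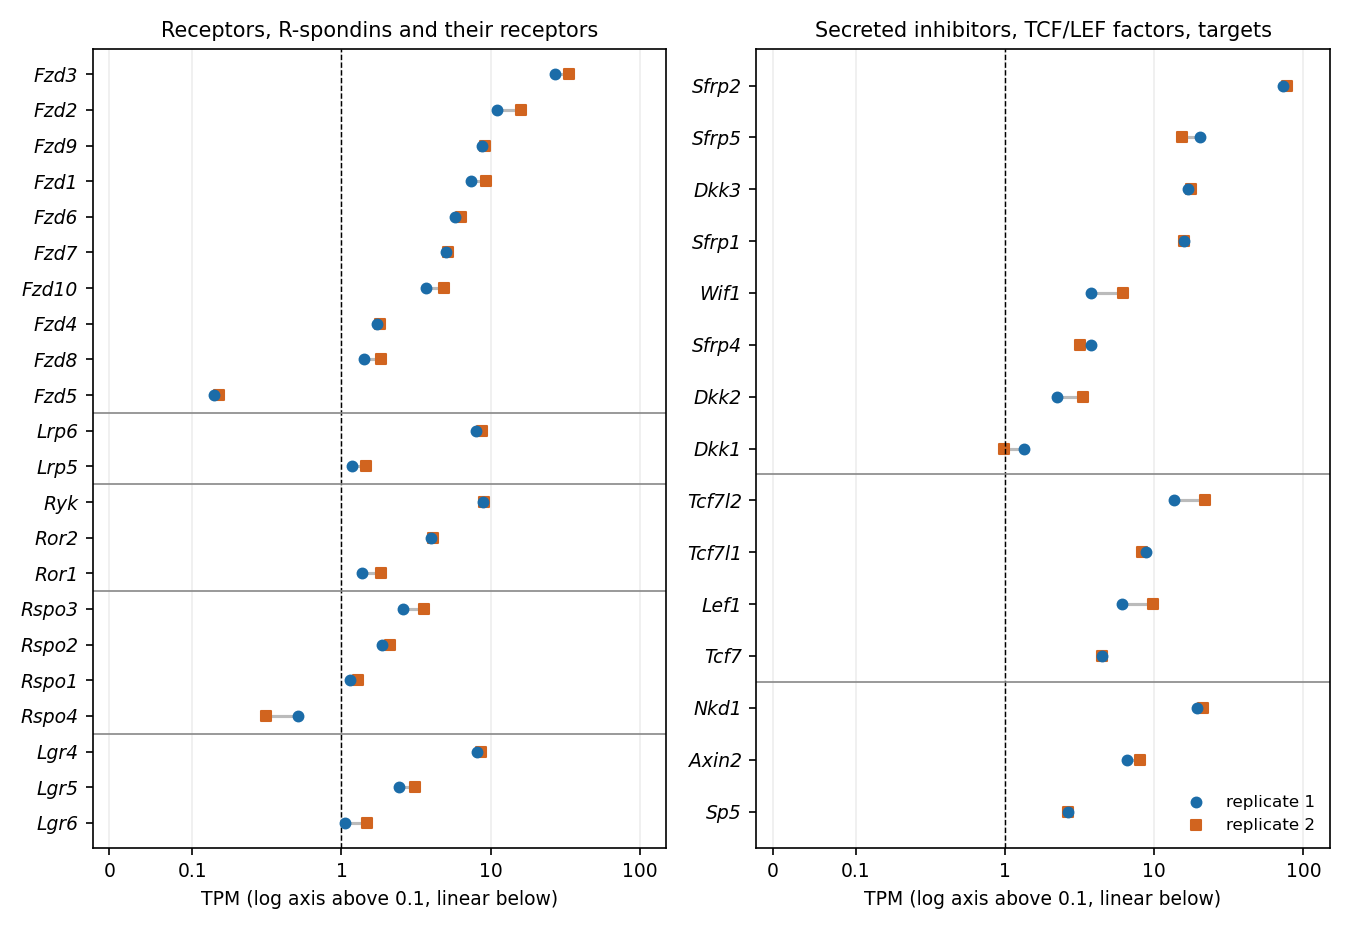
TPM in replicate 1 (circles) and replicate 2 (squares) of the 22 receptor and R-spondin genes (left) and the 15 inhibitor, TCF/LEF and target genes (right), grouped by role between the horizontal lines, on an axis that is logarithmic above 0.1 TPM and linear below, with 1 TPM dashed. Sfrp2 is highest at 73.13 and 78.15 TPM, and Fzd5, Rspo4 and Dkk1 have at least 1 library below the dashed line.

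The libraries were then compared gene by gene. Counts were scaled with TMM factors, genes averaging at least 10 counts were tested with a two-sided exact binomial test, and p-values were adjusted by Benjamini-Hochberg over 17428 genes. The test sets 2 libraries of a single group against counting error and compares no conditions. At adjusted p under 0.05 and at least 2-fold, 392 genes (2.25%) differed, and none of the 51 tested Wnt pathway genes did. At 1.5-fold the same rule took 709 of all genes (4.07%) and 2 of the 51, Wnt11 and Lef1. The unadjusted p of the exact binomial test was under 0.05 for 17 of the 51 and for 34.6% of all genes. With the fold left aside, 12 of the 51 (23.5%) were higher in replicate 2, against 12.8% of all genes, and 1 (1.96%) was lower, against 11.8%. An edgeR exact test with the common dispersion of these libraries passed 216 of all genes (1.24%) and 0 of the 51. Its unadjusted p was under 0.05 for 8 of the 51 and for 6.28% of all genes. The median log2 ratio of replicate 2 over replicate 1 was 0.13 for the 51 genes and 0.0001 for all genes tested, and 36 of the 51 (70.6%) lay above 0. In TPM, whose all-gene median was 0.06 on the log2 scale, 80.4% of the 51 and 60.4% of all genes were higher in replicate 2.

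Of the 14 ligands tested, Wnt11 had the largest log2 ratio of counts. It had 72 counts in replicate 1 and 88 in replicate 2, which, given the smaller total of replicate 2, made a log2 ratio of 0.89 ± 0.23 (SE from counting; adjusted p = 0.00122, exact binomial test; edgeR adjusted p = 0.182). Wnt5a followed with a log2 ratio of 0.42 ± 0.07 from 898.26 and 793.85 estimated counts (adjusted p = 7.54e-08, exact binomial test; edgeR 0.692), and 0.57 in TPM. No other ligand passed the adjusted threshold. For Wnt7b the log2 ratio was 0.09 and for Wnt7a -0.12, both with adjusted p above 0.05.

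Receptor genes that passed were all higher in replicate 2. They were Fzd2 with a log2 ratio of 0.48 ± 0.07, Fzd10 with 0.35 ± 0.13, Fzd1 with 0.27 ± 0.08, Fzd3 with 0.25 ± 0.04, Lrp5 with 0.54 ± 0.20 and Lrp6 with 0.20 ± 0.06. These are folds between 1.15 and 1.46. In TPM, the log2 ratio was 0.31 for Lrp5, 0.14 for Lrp6 and 0.31 for Fzd3. The adjusted p ran from 4.88e-10 for Fzd2 to 0.0401 for Fzd10 (exact binomial test). The other Frizzled, R-spondin, Lgr, Ror and Ryk genes did not pass. Among them Rspo3 had a log2 ratio of 0.39 with adjusted p = 0.108 (exact binomial test), and Fzd4 a ratio of 0.00.

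Inhibitor genes did not move together. Wif1, which binds Wnt proteins directly, had 169 and 167 counts and a log2 ratio of 0.58 ± 0.16 (adjusted p = 0.00196, exact binomial test), and Dkk2 a log2 ratio of 0.52 ± 0.15 (adjusted p = 0.00616, exact binomial test). Sfrp5, with 821 and 393 counts, was the only gene of the 51 that passed the adjusted threshold with a lower value in replicate 2, with a log2 ratio of -0.46 ± 0.09 (adjusted p = 2.18e-06, exact binomial test). Sfrp2 had a log2 ratio of 0.04, Sfrp1 of -0.06 and Dkk3 of 0.00. The ratio of Sfrp2 to Sfrp5 accordingly went from 3.63 in replicate 1 to 5.13 in replicate 2.

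Of the nuclear factors, Lef1 and Tcf7l2 passed and Tcf7 and Tcf7l1 did not. Lef1 had 444 and 459 counts, a log2 ratio of 0.65 ± 0.10 and a fold of 1.57 (adjusted p = 8.29e-10, exact binomial test; edgeR adjusted p = 0.147). Tcf7l2 had 797 and 738 counts and a log2 ratio of 0.49 ± 0.07 (adjusted p = 1.61e-09, exact binomial test; edgeR 0.466). In TPM, which also counts transcript length, the log2 ratio of Tcf7l2 was 0.71, and the mean length that the authors' tables assign to its transcripts was 2709 bases in replicate 1 and 2435 in replicate 2. The feedback and target genes did not pass. Their log2 ratios were 0.11 for Axin2, 0.07 for Nkd1 and -0.04 for Sp5.

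**Figure D3:**
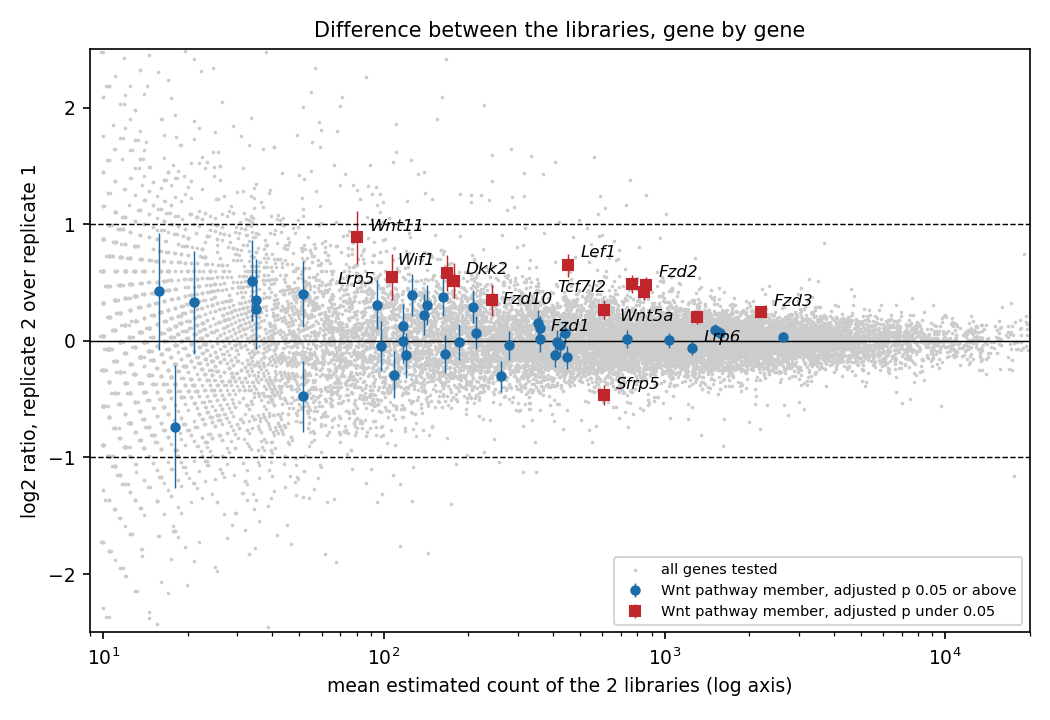
Log2 ratio of replicate 2 over replicate 1 against the mean estimated count (log axis) for the genes tested (grey; genes outside the axis limits are not drawn) and the 51 tested Wnt pathway genes (blue circles, adjusted p 0.05 or above; red squares, adjusted p under 0.05), with the counting standard error as bars and 2-fold as dashed lines. No Wnt pathway gene reaches 2-fold with adjusted p under 0.05, and Sfrp5 is the only red square below 0.

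Markers of other tissues also differed between the libraries. The surface ectoderm list summed to 9.72 and 27.04 TPM in replicates 1 and 2, with 7 of its 10 genes at least 2-fold higher at adjusted p under 0.05 (exact binomial test). These were Krt5, Krt14, Krt15, Krt8, Krt18, Epcam and Trp63. Skeletal muscle markers went from 136.45 to 251.85 TPM, with 7 of 8 called (all but Actc1), and cartilage and sclerotome markers from 98.02 to 141.87 TPM, with Pax1 and Pax9 called of 8 and 7 of 8 higher at adjusted p under 0.05 at any fold. The choroid plexus list went from 6.85 to 112.94 TPM, with Ttr, Folr1, Clic6 and Otx2 called of 6. Ttr alone, a defining gene of that epithelium, had 1.93 and 102.67 TPM. Of 12 forebrain and diencephalon markers, Dlx1, Dlx2, Dlx5 and Otx2, which is also in the choroid plexus list, were called. Counts were low, at 9 and 19 for Dlx2, 9 and 18 for Dlx5 and 1 and 24 for Otx2. Only Otx2 of this list also passed the edgeR exact test. The sum was 41.62 and 46.58 TPM. Rax was at 0 in both libraries (3 counts would be 0.0845 and 0.133 TPM) and Six3 in replicate 1 (3 counts would be 0.0461 TPM). Sensory ganglion and neural crest markers went the other way, from 412.10 to 315.75 TPM, with 7 of 9 lower at adjusted p under 0.05 (exact binomial test), each by less than 2-fold. Roof plate markers, the dorsal source of Wnt1 and Wnt3a, summed to 46.05 and 54.80 TPM and floor plate markers to 108.83 and 99.63 TPM, with none called at 2-fold in either. At adjusted p under 0.05 and any fold (exact binomial test), 3 of 7 roof plate markers, Msx1, Msx2 and Zic1, were higher in replicate 2, and 1 of 6 floor plate markers was higher and 2 were lower. Meningeal and mesenchymal markers summed to 747.61 and 789.42 TPM and endothelial markers to 185.10 and 193.38 TPM, with none called at 2-fold. At any fold 2 of 8 mesenchymal markers were higher and 2 lower, and 1 of 6 endothelial markers was higher and 1 lower. The part of these tissues in the differences of the Wnt pathway genes was not tested.

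**Figure D4:**
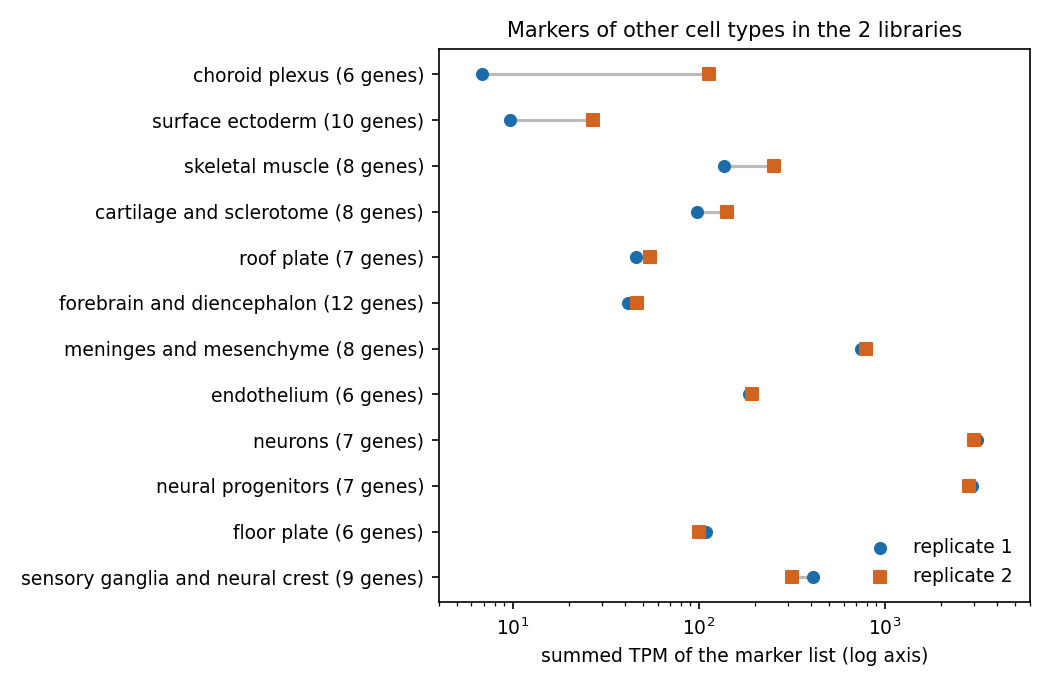
Summed TPM of 12 marker lists in replicate 1 (circles) and replicate 2 (squares) on a log axis, ordered by the ratio of the libraries. Choroid plexus (6.85 and 112.94 TPM), surface ectoderm (9.72 and 27.04 TPM) and skeletal muscle (136.45 and 251.85 TPM) lie farthest apart, and sensory ganglia (412.10 and 315.75 TPM) show the reverse order.

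The transcript tables assigned Lef1 to 6 transcripts and Tcf7l2 to 22. A transcript's share is the isoform percent, its part of the gene's TPM. Lef1-202, a coding transcript without the 84-base exon, held 55.81% in replicate 1 and 53.87% in replicate 2, and Lef1-204, which also lacks it, 27.14% and 33.03%. Together the coding transcripts without that exon held 82.95% and 86.90%, and those with it 9.84% and 8.55%. The exon printed above was thus left out of most Lef1 transcripts in both libraries. Lef1-203, which codes from a later start, was listed at 0 in both. Sharing of reads limits the split: the posterior SD that the tables give was 62.98 of 254.91 estimated counts for Lef1-202 and 54.21 of 122.43 for Lef1-204 in replicate 1. The share with the exon was all Lef1-201, with 46.07 and 40.89 estimated counts and posterior SDs of 32.08 and 28.21.

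For Tcf7l2, 7 of the 22 transcripts were listed at 0 in both libraries. Tcf7l2-209, a coding transcript with the 51-base and the 73-base exon, was highest with 39.64% and 32.68%. Tcf7l2-210, also coding, had 12.02% and 6.75%. Transcripts annotated as retained introns, which carry no coding sequence, summed to 38.95% and 46.40%, and coding transcripts to 61.05% and 53.61%. Among the retained-intron transcripts, Tcf7l2-206 had 10.33% and 24.38% and Tcf7l2-204 had 16.32% and 8.21%, so that their order was opposite in the libraries. These rest on few reads: Tcf7l2-206 had 29.70 estimated counts in replicate 1 and 72.60 in replicate 2, with posterior SDs of 11.86 and 14.12. Its length, like that of Tcf7l2-210, differs between the annotation of the files and GENCODE M21, as it does for 5 of the 22 in all.

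Exon use in Tcf7l2 was uneven along the gene. Coding transcripts with the 51-base exon held 54.26% and 43.49% of the gene's TPM, against 6.79% and 10.12% for those without it. For the 73-base exon, which shifts the frame, the shares were 56.69% and 47.02% with it and 4.36% and 6.59% without. The 69-base exon near the start of the gene was the reverse: transcripts with it held 5.03% and 3.96%, against 56.02% and 48.10% without. The share with it was all Tcf7l2-222, with 30.97 and 25.24 estimated counts and posterior SDs of 8.39 and 10.7. Exons were read from GENCODE M21, where the length of Tcf7l2-222 differs from that in the files. Models of unchanged length held 39.64% and 34.23% with the 51-base exon, and 39.64% and 36.31% with the 73-base exon. In both libraries the coding transcripts mostly held the late exons and lacked the early alternative exon. Coding transcripts from a later start, which lack the first coding exon, held 0% and 1.55%.

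**Figure D5:**
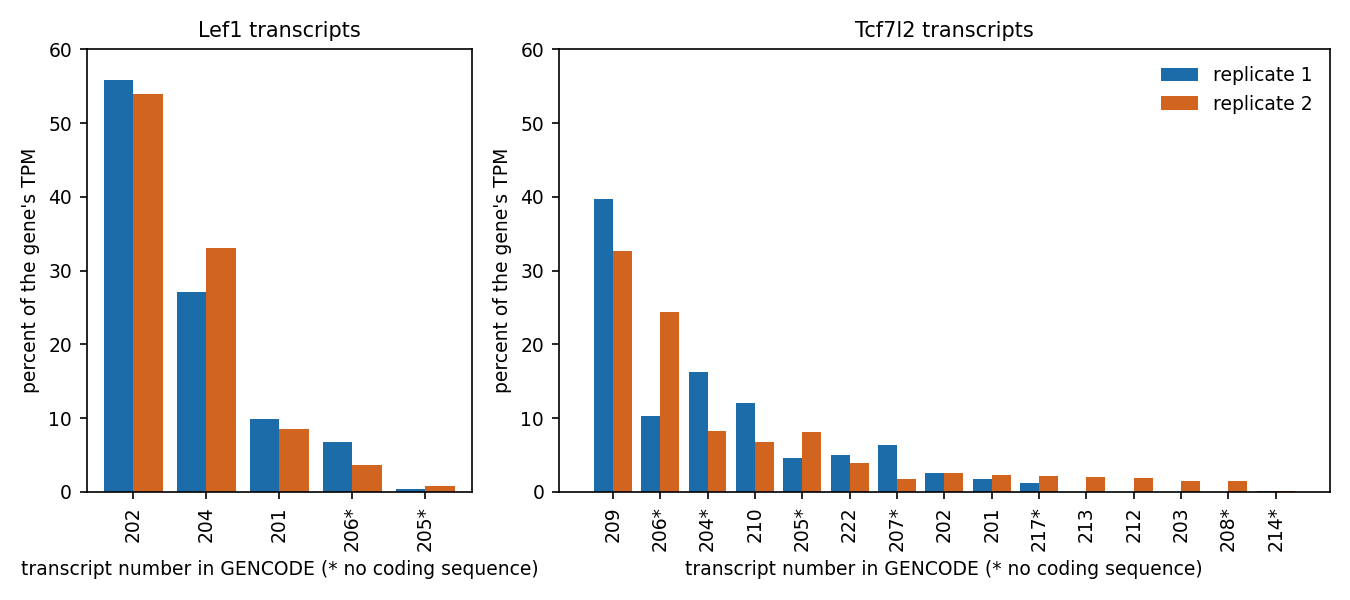
Isoform percent of the Lef1 (left) and Tcf7l2 (right) transcripts above 0 in at least 1 library, with bars for replicate 1 (blue) and replicate 2 (orange), and transcripts without coding sequence starred. Lef1-202 leads at 55.81% and 53.87%, and Tcf7l2-206 differs most between the libraries, at 10.33% and 24.38%.

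Promoters of the Wnt pathway genes were rich in CpG. These dinucleotides in the 300-base window numbered a median of 29 over the 40 genes with an entry (range 6 to 58), against 7 over all promoters and 14 over those of protein-coding genes. Detected ligands had a median of 43.5 (8 genes) and undetected ligands 27 (7 genes). Their ranges overlapped, at 24 to 58 and 6 to 45, and Wnt7b and Wnt5a had no entry. Over all 40 genes the medians were 30 (30 detected genes) and 28 (10 undetected genes). Sp5, a detected gene, had 6 CpG, the minimum of the set, and a GC share of 45%. Of the genes higher in replicate 2, Wnt11 held a match to the TCF/LEF words, CTTTGAT on the minus strand 51 bases before its start. The others of them with an entry, Fzd1, Fzd10, Dkk2, Wif1, Lef1 and Tcf7l2, held none. Among protein-coding promoters 14.4% held a match. Single matches also lay in the windows of Wnt3 and Fzd7.

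The wider pathway was described with 59 other genes. Of these 51 were detected, 54 were tested, none was called at 2-fold, and 13 were higher and 5 lower in replicate 2 at adjusted p under 0.05 (exact binomial test; 12.8% and 11.8% of all genes). The unadjusted p was under 0.05 for 20 of the 54 in that test, against 34.6% of all genes. In the edgeR exact test it was under 0.05 for 6 of the 54, against 6.28% of all genes. All 4 secretion genes were detected, with Tmed2, a cargo receptor, at 265.90 and 283.38 TPM, Wls, the Wnt carrier, at 47.26 and 49.42 TPM and Porcn, the acyltransferase that lipid-modifies Wnt proteins, at 35.48 and 31.06 TPM. The deacylase gene Notum was lowest of them with 2.02 and 1.94 TPM. Every one of the 14 genes of the destruction complex and Dishevelled group and the 12 of the nuclear group was detected. The highest of the nuclear group stood well above every ligand and receptor: Ctnnb1, which encodes β-catenin, had 237.31 and 281.04 TPM and the corepressor gene Tle5 had 415.23 and 382.28 TPM. Cby1, an antagonist of β-catenin, came next in that group with 64.86 and 63.35 TPM, and Bcl9l, a coactivator gene, was lowest with 4.52 and 4.96 TPM.

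Within the destruction complex and Dishevelled list, 6 of 14 genes were higher and 2 lower in replicate 2 at adjusted p under 0.05 (exact binomial test). The highest were Csnk1a1 with 196.38 and 224.02 TPM, Csnk1e with 202.46 and 209.38 TPM and Gsk3b with 118.45 and 127.33 TPM, all kinases. The lower ones were Dvl1 and Axin1. Dvl1, a Dishevelled gene, had 10.95 TPM in replicate 1 and 6.52 in replicate 2, a log2 ratio of -0.86 (edgeR exact test adjusted p = 0.00636). Axin1, the scaffold of the complex and paralogue of Axin2, had 8.76 and 5.44 TPM, a log2 ratio of -0.75 (edgeR exact test adjusted p = 0.0485). They were the only 2 of the 54 tested genes that passed the edgeR test, against 1.24% of all genes. Of 21 other extracellular and membrane regulators, 17 were detected, led by the glypican gene Gpc3 with 102.03 and 144.27 TPM, Tspan12 with 57.51 and 59.34 TPM and Cthrc1 with 51.76 and 58.98 TPM. Reck, which acts with Wnt7 ligands on vessels, had 6.83 and 8.78 TPM, and its partner Adgra2 had 1.69 and 1.75 TPM. Kremen2, a receptor for Dickkopf proteins, had 1.11 and 2.32 TPM, a log2 ratio of 0.99 (adjusted p = 0.00188, exact binomial test). Of 8 other Wnt-responsive genes 4 were detected, led by Myc with 45.29 and 44.65 TPM, Ccnd1 with 22.73 and 37.97 TPM and Tnfrsf19 with 16.51 and 16.90 TPM. Dkk4, Cdx2 and Cdx4 had 0 counts in both libraries, where 3 counts would be no more than 0.174 TPM for any of them. Dvl1, Frzb, Reck, Adgra2 and Kremen2 were singled out after their values were seen.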

How the data were processed

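Total RNA was measured in 2 libraries of a single group, grouped by the replicate number in the labels, and the authors deposited a gene and a transcript table for each, with build mm10 and annotation M4 per the submitters' processing notes. For the aligner, the quantifier and the use of strand: not given in the sources used here. Per the file headers, the deposited values are expected counts, TPM (scaled over all features, spike-ins included), FPKM, isoform percent and a posterior standard deviation of the count, an uncertainty score in reads. FPKM served only in an alternative. Expected counts were rounded, scaled with TMM (edgeR 4.0.16, R 4.3.3) and compared by a two-sided exact binomial test over genes with a mean of 10 counts or more, with Benjamini-Hochberg adjustment (SciPy 1.17.1). The edgeR exact test used the common dispersion of an intercept-only fit. The binomial test was checked before use on simulated counts that had counting error only. That check does not cover the spread between these libraries. No batch is recorded for the libraries. Floors of 3 counts cover counting error only.

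Symbols, coordinates and transcript features came from GENCODE M21, promoters from RefSeq. The members and gene lists were chosen with earlier results of these data known. Named by rule were, per role, the 4 highest and the lowest member by mean TPM, each TCF/LEF, feedback and target gene, each member called, the highest 3 and the lowest genes of the pathway lists, transcripts at 10% or more, and neighbouring Wnt pairs; other members past the adjusted p were named after their values were seen. Marker lists are given by their sums and called genes, of which 1 is not reported here. Alternatives were other size factors, no count filter, posterior means, the edgeR test, other thresholds and single libraries. Wnt pathway genes had a posterior SD of at most 5.14% of their count.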

Additional observations from a re-analysis of the deposited data

How the results depend on the processing

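Of 90 values recomputed under alternatives other than leaving out a library, 67 were rated the same, by a rule for each kind of value. Counts of genes had to stay within 1.5-fold of the main count, and sums and shares within the SD of the libraries. Log2 ratios had to keep adjusted p under 0.05 with DESeq2 size factors, or lie within 1 counting SE as ratios of TPM. None of the 26 recomputed log2 ratios changed direction. Detected Wnt pathway genes numbered 36 to 47 and detected ligands 9 to 12 over detection levels, FPKM, mouse-only TPM and single libraries. No gene of the 51 was called under DESeq2 size factors, without a count filter, with posterior mean counts, with library totals (added after seeing the data) or by the edgeR test. At 1.5-fold 2 were, Wnt11 and Lef1 (4.07% of all genes). The 13 genes past the adjusted p at any fold became 0 under the edgeR exact test, which adds the spread between libraries to counting error. That spread was estimated from the same 2 libraries that the test compared, so the drop is not an independent check. With TPM rescaled over mouse genes only, which removes the spike-in share, the sums were 86.9 for ligands, 91.9 for Frizzled, 11.1 for LRP, 7.68 for R-spondins, 14.2 for their receptors, 16.8 for Ror and Ryk, 159 for inhibitors and 34.8 TPM for targets. With posterior means the inhibitors summed to 135 TPM, Lef1-202 held 47.9%, Tcf7l2-209 held 30.1% and Lef1 without the 84-base exon 81.7%; the cause was not tested. As ratios of TPM, the log2 ratio was 0.57 for Wnt5a, 0.31 for Fzd3, 0.31 for Lrp5, 0.14 for Lrp6 and 0.71 for Tcf7l2. Leaving out a library says nothing about the stability of a mean of 2, and cannot be done for a difference between the libraries. It gave 46 and 45 detected genes and 12 and 10 detected ligands. No paired analysis was possible because there is a single group. At 1 TPM a transcript of 2 kb had about 43.0 counts in replicate 1 and 27.2 in replicate 2, which limits the low genes.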
